A study of Mus musculus with 6 samples.

Results

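The extracellular matrix of the gut wall was examined through 40 genes, which encode collagens, laminins, elastic fibre proteins, matricellular proteins, small proteoglycans, matrix enzymes with their inhibitors, and the PDGF receptors of fibroblasts. A gene entered when a probe set was paired with its symbol alone, and where there were several the brightest on average stood for it. By this rule 39 of the 40 genes were found among 22180 named genes. Fbn1, which encodes fibrillin, the backbone of microfibrils, had no such probe set and was not analysed here. RNA came from the duodenum of mice aged 10 weeks on a C57Bl/6 background. Of these, 3 were wild-type and 3 VDR-null, which lack the vitamin D receptor, with 1 whole-transcript array for each. No other allele, agent or diet is named for either group, and the sources used here do not say how the receptor gene was disrupted. The comparison asks which duodenal transcripts differ when the receptor is missing.

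Fibroblasts below the epithelium and between the muscle layers make most interstitial matrix. Fibrillar collagens give it tensile strength, elastic fibres give it recoil, and small leucine-rich proteoglycans coat and space the fibrils. Basement membranes, sheets of type IV collagen, laminin, nidogen and perlecan, lie under the epithelium and around vessels, muscle cells and nerves, and are made by all of these cells as well as by fibroblasts. Matricellular proteins such as periostin and thrombospondin-1 are secreted into the matrix and modulate how cells attach to it and signal. A whole piece of duodenum holds all these cells, so fewer cells of a type and less RNA per cell cannot be told apart in these values.

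Values are log2 signals, so a difference of 1 is a 2-fold change, and differences are VDR-null minus wild-type. Testing required a signal above 5.17, the median over the whole table, on 3 or more of the 6 arrays. Of the 39 matrix genes 38 were tested, among 13174 genes in all. Lox, the lysyl oxidase that crosslinks collagen and elastin, stayed below that level on all 6 arrays (4.63 to 4.92) and was not tested. Col4a6 was above it on 3 of the 6 arrays and the other 37 tested genes on all 6.

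In the fit over all arrays, matrix genes were on the whole slightly lower in VDR-null duodenum, but none passed the test. The sign of the difference was lower in 36 of 38, where it was lower in 56% of all tested genes, and the median difference was -0.22 against -0.026 over all tested genes. With limma, 0 of 38 passed an adjusted p of 0.05, as did 0% of all tested genes. At an unadjusted p under 0.05 there were 2 of 38, both lower, against 5.23% of all tested genes (3.03% lower and 2.2% higher). In 5 of 38, all lower, no VDR-null array reached into the wild-type range, where 6.22% of all tested genes were apart in the lower and 4.87% in the higher direction. The smallest adjusted p among matrix genes was 0.683, and a p that misses the threshold does not show that the genotypes were alike. The differences ran from -0.51 for Postn to 0.22 for Fbln1.

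This shift rested largely on 1 array of each genotype. Wild-type replicate 1 had the highest value of the 6 arrays in 31 of 38 genes and VDR-null replicate 1 the lowest in 29 of 38. Both held in 26 genes, or 68.4%, against 18% of all tested genes. These arrays also stood at opposite ends of the first principal component of all tested genes, which carried 62.2% of the variance. Without wild-type replicate 1 the median difference was -0.093, with 33 of 38 genes lower, and without VDR-null replicate 1 it was -0.080, with 32 lower. Without both it was 0.0092, with 17 of 38 lower, where 45.6% of all tested genes were lower. In the 26 genes with both extremes on these arrays, leaving both out could only move the difference upward. The fits without both arrays are therefore a description of where the shift lies and no independent test. The lowest differences without both arrays were those of Postn (-0.40), Eln (-0.25), Fbln2 (-0.24), Timp3 (-0.17) and Col15a1 (-0.15).

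**Figure D1:**
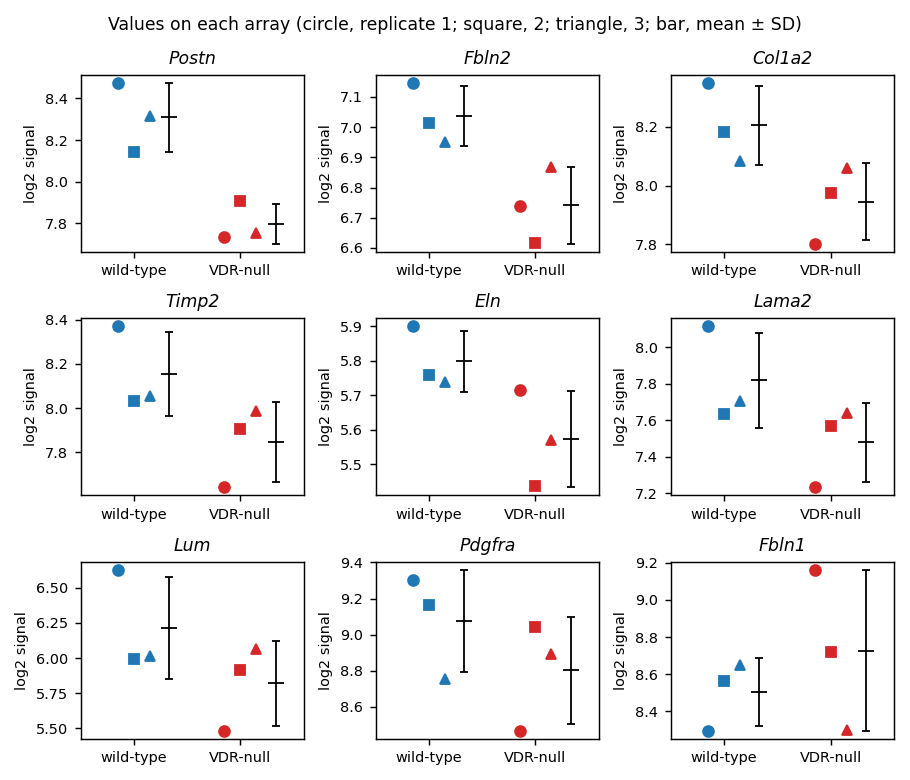
Log2 signals of 9 matrix genes on each array, by genotype (circle, replicate 1; square, replicate 2; triangle, replicate 3; black bar, mean ± SD, n = 3). The genotypes do not overlap in Postn, Fbln2, Col1a2, Timp2 and Eln. In Lama2, Lum and Pdgfra they overlap, with replicate 1 highest in wild-type and lowest in VDR-null, and in Fbln1 the replicate 1 arrays lie the other way round.

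Among the matricellular and adhesive genes, Postn had the largest difference of all matrix genes. It encodes periostin, a secreted protein of fibroblasts that binds collagen and integrins and is abundant in remodelling matrix. It read 8.47, 8.14 and 8.32 on the wild-type arrays (replicates 1 to 3, the order used throughout) against 7.73, 7.91 and 7.75 on the VDR-null arrays. Every VDR-null array lay below every wild-type array. The difference was -0.51 ± 0.11 (SE; 95% confidence interval -0.78 to -0.24), 1.43-fold higher in wild-type, with an unadjusted p of 0.00283 and an adjusted p of 0.683 in limma. Unlike the matrix genes as a whole, it kept most of its size without both replicate 1 arrays, at -0.40 ± 0.12 (SE; limma adjusted p = 0.999). It had the smallest p of the matrix genes in each of the 20 alternative fits, with an adjusted p from 0.191 to 1, and it had already been picked for its small p in these same data.

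RefSeq places 2 start sites for Postn on the GRCm38.p6 build, and the 250 bases before each are shown, 5′ to 3′, because Postn had the largest difference of the set. Capitals mark the only matches to 4 motifs searched on both strands: the TATA box core TATAAA, the GC box GGGCGG, the CCAAT box CCAAT and AGGTCA, a recognition element of nuclear receptors, which the vitamin D receptor binds in pairs. The first stretch (chr3:54359017-54359266, plus strand) holds a reversed AGGTCA and the second (chr3:54360857-54361106, plus strand) holds a TATA box core.
Postn first start: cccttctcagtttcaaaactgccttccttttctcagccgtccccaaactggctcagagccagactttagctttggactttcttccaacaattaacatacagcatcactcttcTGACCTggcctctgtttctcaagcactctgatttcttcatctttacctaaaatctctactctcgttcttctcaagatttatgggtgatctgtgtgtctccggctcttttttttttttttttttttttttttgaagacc
Postn second start: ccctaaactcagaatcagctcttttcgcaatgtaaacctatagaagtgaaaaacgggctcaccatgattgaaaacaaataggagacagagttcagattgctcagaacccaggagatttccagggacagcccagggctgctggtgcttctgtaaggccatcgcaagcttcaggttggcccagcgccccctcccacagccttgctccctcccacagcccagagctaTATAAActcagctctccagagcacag

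The other 3 genes of the group did not separate the genotypes. Thbs1, which encodes the adhesive glycoprotein thrombospondin-1, read 9.61, 8.99 and 9.11 on the wild-type arrays against 8.60, 9.19 and 8.96 on the VDR-null arrays, with the other VDR-null arrays inside the wild-type range or close to it. Its difference was -0.32 ± 0.21 (SE) over all arrays and 0.023 without both replicate 1 arrays. Fn1, fibronectin, which links cells to collagen, differed by -0.28 ± 0.21 and by 0.071 without those arrays. Sparc, a collagen-binding glycoprotein of matrix-forming cells, differed by -0.19 ± 0.13 and by 0.012. The median of the group was -0.30, and 0.018 without both replicate 1 arrays.

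Of the elastic fibre genes, Fbln2 was the other matrix gene with an unadjusted p under 0.05. It encodes fibulin-2, which binds elastin, fibrillin and basement membrane proteins. It read 7.15, 7.01 and 6.95 on the wild-type arrays against 6.74, 6.62 and 6.87 on the VDR-null arrays, with no overlap. The difference was -0.30 ± 0.10 (SE), 1.23-fold higher in wild-type, with an unadjusted p of 0.0252 and an adjusted p of 0.683 in limma. Without both replicate 1 arrays it was -0.24 ± 0.13 (SE), with an unadjusted p of 0.114.

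Eln, which encodes elastin, also did not overlap between the genotypes, with 5.90, 5.76 and 5.74 on the wild-type arrays against 5.71, 5.43 and 5.57 on the VDR-null arrays. Its difference was -0.23 ± 0.11 (SE), and -0.25 without both replicate 1 arrays. VDR-null replicate 1, the lowest array in most matrix genes, was here the highest VDR-null array. Fbln5, fibulin-5, needed for elastic fibre assembly, followed the common pattern instead, at -0.18 ± 0.18 (SE) and 0.093 without both arrays. Fbln1, fibulin-1, found in basement membranes and elastic fibres, was the matrix gene with the largest difference in the higher direction, at 0.22 ± 0.22 (SE). It read 8.30, 8.57 and 8.65 on the wild-type arrays against 9.16, 8.72 and 8.30 on the VDR-null arrays. Here wild-type replicate 1 was the lowest of the 6 arrays and VDR-null replicate 1 the highest, the reverse of the common pattern, which 13.5% of all tested genes showed and no other matrix gene did. Without both arrays its difference was -0.099.

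All 5 fibrillar collagen genes had a lower sign. Their median difference was -0.13, beside -0.21 for basement membrane and -0.30 for matricellular genes. Col1a2, the second chain of type I collagen, had the smallest p of the 5. It read 8.35, 8.18 and 8.09 on the wild-type arrays against 7.80, 7.98 and 8.06 on the VDR-null arrays. No VDR-null array reached the lowest wild-type array, but the gap between them was smaller than the spread within either genotype. The difference was -0.26 ± 0.11 (SE; limma unadjusted p = 0.0542, adjusted p = 0.683), and -0.12 without both replicate 1 arrays. A second, dimmer probe set of Col1a2 differed by -0.017, with overlap between genotypes. The mean of its probe sets differed by -0.14 (limma unadjusted p = 0.235). Col1a1, whose protein assembles with that of Col1a2 in type I collagen, differed by -0.13 ± 0.12 (SE), with values of 9.56, 9.30 and 9.26 on the wild-type arrays against 9.10, 9.26 and 9.36 on the VDR-null arrays that overlapped.

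Col3a1, type III collagen of distensible organs, differed by -0.063 ± 0.13 (SE). The type V chains Col5a1 and Col5a2, which regulate fibril diameter, differed by -0.18 ± 0.14 and -0.069 ± 0.10. Without both replicate 1 arrays 4 of the 5 fibrillar genes had a higher sign, between 0.0081 and 0.069, and the median was 0.010. The order of the 3 role groups therefore did not hold without these arrays, where the medians were 0.010 for fibrillar, -0.025 for basement membrane and 0.018 for matricellular genes.

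The 250 bases before the RefSeq start of Col1a2 (chr6:4505368-4505617, plus strand, GRCm38.p6) and of Timp2 (chr11:118355412-118355661, minus strand), 2 further genes whose arrays did not overlap, are shown with the same motifs in capitals. Col1a2 holds 2 GC boxes and a CCAAT box, and Timp2 a CCAAT box and a GC box.
Col1a2: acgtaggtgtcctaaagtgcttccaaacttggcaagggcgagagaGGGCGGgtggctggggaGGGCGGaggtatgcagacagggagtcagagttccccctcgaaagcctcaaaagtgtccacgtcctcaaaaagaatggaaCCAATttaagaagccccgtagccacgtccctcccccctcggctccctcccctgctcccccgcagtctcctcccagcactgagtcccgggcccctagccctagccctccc
Timp2: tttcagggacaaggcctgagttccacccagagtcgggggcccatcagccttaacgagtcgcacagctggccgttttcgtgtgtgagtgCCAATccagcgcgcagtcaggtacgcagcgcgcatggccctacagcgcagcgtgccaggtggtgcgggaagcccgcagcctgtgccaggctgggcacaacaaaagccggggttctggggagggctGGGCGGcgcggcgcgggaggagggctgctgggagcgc

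The set of promoter sequences used here held 30 such upstream stretches for 25 of the 39 matrix genes, and none for the rest. GC boxes were in 17 of the 30 (56.7%), against 32.7% of all 32851 stretches of the same length. TATA box cores were in 2 (6.67%, against 12.4%), those of Col3a1 and of the second Postn start. CCAAT boxes were in 9 (30%, against 33.8%) and AGGTCA in 1 (3.33%, against 14%), at the first Postn start. The median GC content was 59% against 52.4%. These are letter matches, not binding sites.

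**Figure D2:**
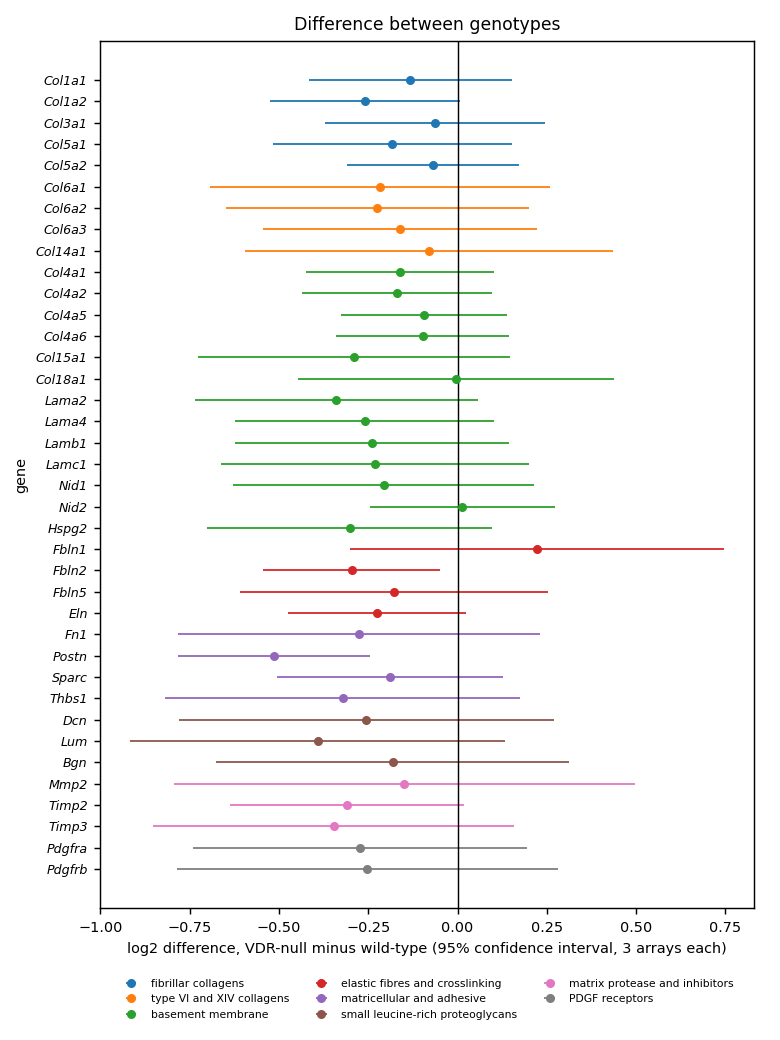
Log2 difference, VDR-null minus wild-type, for the 38 tested matrix genes, with 95% confidence intervals from limma (3 arrays per genotype), coloured by role. The intervals of Postn and Fbln2 lie below 0, and those of the other 36 genes cross it.

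Collagens VI and XIV, which tether fibrils to cells and to each other, all had a lower sign. Col6a2 had the smallest p of the 4, with 8.84, 8.50 and 8.27 on the wild-type arrays against 8.05, 8.47 and 8.41 on the VDR-null arrays. VDR-null replicate 1 was the lowest array and the other VDR-null arrays lay inside the wild-type range. Its difference was -0.22 ± 0.18 (SE), and 0.059 without both replicate 1 arrays. Its neighbour on chromosome 10, Col6a1, which encodes the first chain of the same collagen, differed by -0.22 ± 0.20 and by 0.12. The third chain, Col6a3, differed by -0.16 ± 0.16 and Col14a1, a collagen on fibril surfaces, by -0.079 ± 0.22.

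Basement membrane genes had a lower sign in 12 of 13 cases, with a median of -0.21, and 9 of 13 were lower without both replicate 1 arrays. Lama2, the laminin alpha-2 chain of muscle and nerve basement membranes, had the smallest p of them. It read 8.12, 7.63 and 7.71 on the wild-type arrays against 7.23, 7.57 and 7.64 on the VDR-null arrays. Wild-type replicate 2 and VDR-null replicate 3 were level to within 0.01, and otherwise the genotypes were apart. The difference was -0.34 ± 0.17 (SE; limma adjusted p = 0.683), and -0.069 without both replicate 1 arrays. Hspg2, perlecan, a heparan sulfate proteoglycan, differed by -0.30 ± 0.17 and by -0.058 in these fits. Lama4, the laminin alpha-4 chain of vessels, differed by -0.26 ± 0.15 (SE) over all arrays.

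The laminin chains Lamb1 and Lamc1, which pair with many alpha chains, differed by -0.24 ± 0.16 (SE) and -0.23 ± 0.18. The nidogens bridge laminin and type IV collagen. Nid1 differed by -0.21 ± 0.18 and a second probe set of it by -0.21, and Nid2 differed by 0.014 ± 0.11. Without both replicate 1 arrays Nid1 was at 0.073 and Nid2 at 0.067. Over all arrays Col18a1, precursor of endostatin, differed by -0.0049 ± 0.19, and Col15a1, a related collagen of vessels and muscle, by -0.29 ± 0.18. Col15a1 read 7.01, 6.68 and 6.27 on the wild-type arrays against 6.45, 6.34 and 6.30 on the VDR-null arrays, a wider spread in wild-type.

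Type IV collagen genes lie in head-to-head pairs. The RefSeq starts used for the upstream stretches of Col4a1 and Col4a2, on opposite strands of chromosome 8, are 21 bases apart. That of Col4a1 is at 11312826 (minus strand) and that of Col4a2 at 11312805 (plus strand), so the genes overlap there. Those of Col4a6 and Col4a5 on the X chromosome are 1343 bases apart. Col4a1 read 7.75, 7.50 and 7.52 on the wild-type arrays against 7.29, 7.48 and 7.51 on the VDR-null arrays. Col4a2 read 7.48, 7.30 and 7.18 on the wild-type arrays against 7.03, 7.23 and 7.20 on the VDR-null arrays. Both were highest on wild-type replicate 1 and lowest on VDR-null replicate 1, and their differences were -0.16 ± 0.11 (SE) and -0.17 ± 0.11. Col4a5 and Col4a6, near the median of all values, differed by -0.094 ± 0.098 and -0.098 ± 0.10 and shared the lowest array but not the highest.

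The small leucine-rich proteoglycans Dcn (decorin), Lum (lumican) and Bgn (biglycan) bind collagen fibrils. All 3 were highest on wild-type replicate 1 and lowest on VDR-null replicate 1. Lum, with the smallest p of the 3, read 6.63, 5.99 and 6.02 on the wild-type arrays against 5.48, 5.91 and 6.07 on the VDR-null arrays. Its difference of -0.39 ± 0.22 (SE; limma adjusted p = 0.683) became -0.013 without both replicate 1 arrays. Dcn, its neighbour on chromosome 10, read 11.17, 10.60 and 10.82 on the wild-type arrays against 10.20, 10.69 and 10.93 on the VDR-null arrays, a difference of -0.26 ± 0.22 (SE) that became 0.10. Bgn differed by -0.18 ± 0.21, and by -0.0029 on a second, dimmer probe set.

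Among the matrix enzyme and inhibitor genes, Timp2, which encodes a metalloproteinase inhibitor that also takes part in activating the protease MMP2, did not overlap between genotypes. It read 8.37, 8.03 and 8.06 on the wild-type arrays against 7.64, 7.90 and 7.99 on the VDR-null arrays. The gap between wild-type replicate 2 and VDR-null replicate 3 was smaller than the spread within either genotype. The difference was -0.31 ± 0.14 (SE; limma unadjusted p = 0.0609, adjusted p = 0.683), and -0.099 without both replicate 1 arrays. Timp3, an inhibitor that binds to the matrix, read 9.18, 8.50 and 9.13 on the wild-type arrays against 8.47, 8.42 and 8.88 on the VDR-null arrays, a difference of -0.35 ± 0.21 (SE). Mmp2, the gelatinase itself, had the lowest VDR-null replicate 1 value relative to its own mean, at -0.69. It read 9.39, 9.18 and 8.86 on the wild-type arrays against 8.38, 9.31 and 9.29 on the VDR-null arrays, and its difference went from -0.15 ± 0.27 (SE) to 0.28 without both replicate 1 arrays.

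The PDGF receptors mark mesenchymal cells, Pdgfra fibroblasts and Pdgfrb fibroblasts and pericytes. Pdgfra read 9.30, 9.17 and 8.76 on the wild-type arrays against 8.47, 9.04 and 8.89 on the VDR-null arrays, and the genotypes overlapped. Its difference was -0.27 ± 0.20 (SE), and 0.0075 without both replicate 1 arrays. Pdgfrb differed by -0.25 ± 0.22 and by 0.097. Of the 4 PDGF ligand genes none passed the limma threshold, and 2 were lower and 2 higher, with Pdgfb at -0.16 ± 0.091 and Pdgfc at 0.20 ± 0.18. All 4 were lower without both replicate 1 arrays (median -0.051).

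**Figure D3:**
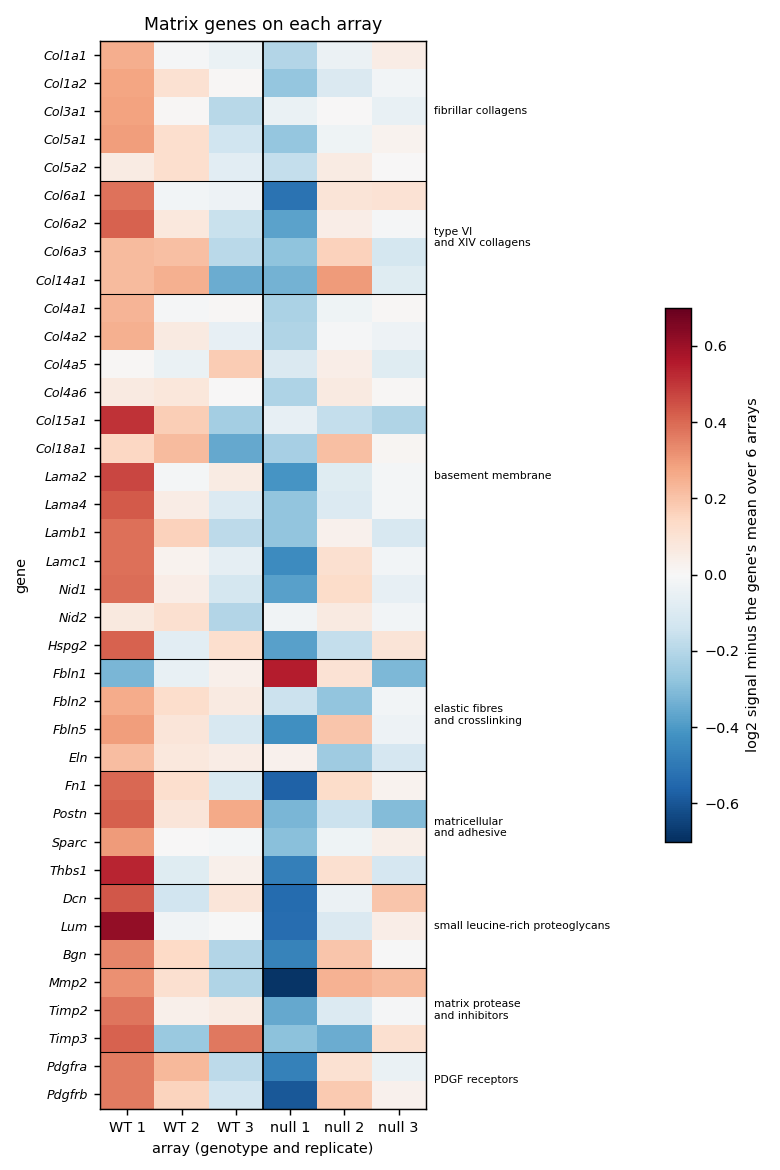
Log2 signal of each tested matrix gene on each array minus the gene's mean over the 6 arrays, with genes grouped by role and a line between genotypes. Most rows are red on wild-type replicate 1 and blue on VDR-null replicate 1, with Fbln1 the reverse, and the other 4 arrays show mixed, paler colours.

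Genes that process collagen and the rest of the interstitial matrix were mostly lower in the fit over all arrays, where 56% of all tested genes were. None of the genes of these further lists passed the limma threshold. Of 13 tested genes for collagen processing and crosslinking 12 were lower (median -0.081), such as the crosslinking enzyme Loxl1 at -0.25 ± 0.11 (SE) and the procollagen enhancer Pcolce at -0.34 ± 0.19. Of 29 other interstitial matrix genes 26 were lower (median -0.22) and 4 had an unadjusted p under 0.05, all lower, against 3.03% of all tested genes. Without both replicate 1 arrays 18 of the 29 were lower (median -0.021), as were 6 of the 13 collagen processing genes (median 0.0097). The 4 with an unadjusted p under 0.05 over all arrays include Emilin2, of the emilin glycoproteins, at -0.29 ± 0.077 and Sparcl1, a relative of Sparc, at -0.45 ± 0.13, neither with overlap between genotypes. Emilin2 read 5.63, 5.59 and 5.60 on the wild-type arrays against 5.29, 5.33 and 5.32 on the VDR-null arrays, with the arrays of each genotype close together. These signals are dim, not far above 5.17, the median over the whole table.

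Genes listed for epithelial basement membranes (laminins, collagens, Agrn and Npnt) were lower in 6 of 9 cases (median -0.11), with Lamb2 at -0.27 ± 0.13 (SE) and Col17a1 at -0.20 ± 0.10. The higher ones were Lama3 at 0.097 ± 0.24, Lamb3 at 0.21 ± 0.19 and Agrn at 0.12 ± 0.17 (chosen after their values were seen). Other matrix proteases and inhibitors were lower in 9 of 13 (median -0.048), with Adamts5 at -0.35 ± 0.15 and Mmp9, a protease of leukocytes, at 0.48 ± 0.22. TGF-beta genes were lower in 10 of 15 (median -0.12), with the receptors Tgfbr1 at -0.29 ± 0.13 and Tgfbr2 at -0.25 ± 0.12. This list joins ligands, receptors and SMADs, which drive matrix production, with inhibitors of the signalling (Smad7, Ski, Skil and Tgif1). Its count therefore gives no direction of signalling. Smad7, an inhibitor of this signalling, was at 0.35 ± 0.17 (chosen after its values were seen). Integrins and other matrix receptors were lower in 16 of 22 (median -0.13). At an unadjusted p under 0.05, 4 of the 22 were lower and 1 higher, against 3.03% and 2.2% of all tested genes. The collagen receptor chain Itga1 was at -0.32 ± 0.11 and the muscle laminin receptor chain Itga7 at -0.23 ± 0.083. The higher one was Itga3, a laminin receptor chain, at 0.44 ± 0.18 (chosen after its values were seen). Without both replicate 1 arrays 8 of the 9 epithelial basement membrane genes (median -0.0855) and 4 of the 13 proteases and inhibitors (median 0.0445) were lower. Of the TGF-beta genes 10 of 15 (median -0.039) and of the integrins and receptors 16 of 22 (median -0.076) were lower in that fit. There 45.6% of all tested genes were lower.

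Markers of the cells that make matrix, and of cells around them, were read on the same arrays. Fibroblast markers outside the matrix set were lower in 11 of 14 tested (median -0.20), where 56% of all tested genes were lower. Cxcl12 at -0.36 ± 0.17 (SE) and Cd34 at -0.37 ± 0.20 had the smallest p. The 3 higher ones were Thy1 at 0.071, Foxl1 at 0.068 and Tcf21 at 0.017. S100a4, Pi16, Twist1, Fap and Meg3 were too dim to be tested. The log2 of the summed signal of all 19 fibroblast markers was 12.00 to 12.39 on wild-type and 11.80 to 12.07 on VDR-null arrays. Smooth muscle markers were lower in 12 of 12 (median -0.37), with Synpo2 at -0.42 ± 0.12 and Mylk at -0.41 ± 0.12, and summed to 13.71 to 14.23 and to 13.64 to 13.70. Pericyte markers were lower in 6 of 6 tested (summed 11.79 to 12.26 and 11.61 to 11.77), with Abcc9 at -0.50 ± 0.14 and Rgs5 at -0.47 ± 0.15. Endothelial markers were lower in 12 of 12 (summed 12.02 to 12.43 and 11.73 to 12.01), with the receptor Tek at -0.49 ± 0.10 and Plvap at -0.28 ± 0.11. Without both replicate 1 arrays 8 of the 14 fibroblast markers (median -0.014) and 12 smooth muscle markers (median -0.30) were lower. So were 6 pericyte (median -0.24) and 11 endothelial markers (median -0.10), where 45.6% of all tested genes were lower. In all of these lists the limma adjusted p was 0.683 or higher.

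Brush border genes had their extremes on the same arrays as matrix genes, with the opposite sign. Brush border genes of enterocytes were higher in 18 of 18 tested (median 0.57), with Anpep at 0.66 ± 0.18 (SE) and Anks4b at 0.68 ± 0.25, and summed to 14.02 to 15.24 on wild-type and 15.01 to 15.85 on VDR-null arrays. Their mean deviation was -1.17 on wild-type replicate 1 and 0.83 on VDR-null replicate 1, where matrix genes had 0.30 and -0.30. Without both of these arrays 11 of the 18 were higher (median 0.069), where 45.6% of all tested genes were lower. Cell division genes were lower in 17 of 17 (summed 13.19 to 13.62 and 12.87 to 13.44), where 56% of all tested genes were lower. Tyms was at -0.34 ± 0.13 and Mki67 at -0.42 ± 0.17. The list mean was highest on wild-type replicate 1 (0.32) and lowest on VDR-null replicate 1 (-0.39), as that of matrix genes was. Without both arrays 11 of the 17 were lower (median -0.031). Immune cell markers were higher in 7 of 7 (summed 10.21 to 11.14 and 10.75 to 11.18), with Cd3g at 0.77 ± 0.38 and Itgax at 0.51 ± 0.28. Their lowest mean was on wild-type replicate 3 (-0.57) and their highest on VDR-null replicate 2 (0.46), and all 7 were higher without both replicate 1 arrays too (median 0.29).

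Few genes listed as markers of attached tissues and glia were bright enough to be tested. Whether those few are particular to such cells in duodenum was not tested, so they give no sure reading of them. The 2 tested adipocyte markers averaged -0.54 on wild-type replicate 1 and 0.51 on VDR-null replicate 1, the signs that brush border genes had there. These 2 genes differed in opposite directions between the genotypes, so the average need not hold for each. Of mesothelial markers Msln, Upk3b and Lrrn4 were too dim to be tested, and of the 3 tested Wt1 and Krt19 differed by -0.18 ± 0.14 (SE) and -0.059 ± 0.11 and Upk1b by 0.099 ± 0.22. Of adipocyte markers Adipoq, Plin1, Lep and Retn were too dim, Fabp4 differed by -0.36 ± 0.17 and Cidec by 0.83 ± 0.64. Of glial markers S100b and Gfap were too dim, Sox10 differed by -0.15 ± 0.14 and Erbb3 by 0.31 ± 0.16. What part any of these cell types has in the matrix values was not tested.

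**Figure D4:**
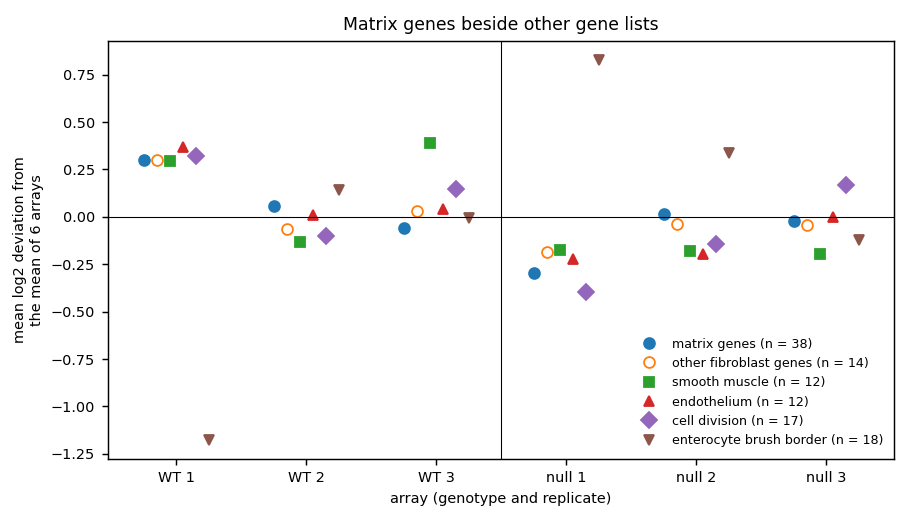
Mean log2 deviation from the mean of 6 arrays for matrix genes and 5 other gene lists on each array, offset sideways for clarity. Matrix genes lie at 0.30 on wild-type replicate 1 and -0.30 on VDR-null replicate 1 and within 0.06 of 0 elsewhere. Smooth muscle markers are high on wild-type replicates 1 and 3 and low on all 3 VDR-null arrays, and brush border genes are lowest where matrix genes are highest.

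Matrix genes and smooth muscle markers differed in which arrays carried the signal. Relative to the mean of the 6 arrays, smooth muscle markers lay at 0.29, -0.13 and 0.39 in wild-type and at -0.18, -0.18 and -0.19 in VDR-null duodenum. Matrix genes lay at 0.30, 0.059 and -0.056 in wild-type and at -0.30, 0.015 and -0.022 in VDR-null duodenum. Wild-type replicate 3 was thus high in muscle markers and near the mean in matrix genes. Timp3 and Postn were the matrix genes above 0.2 on wild-type replicates 1 and 3 both, relative to their own mean. With the smooth muscle mean as a covariate the median difference of the matrix genes was -0.21, with 35 of 38 lower, and Postn was at -0.34 ± 0.16 (SE; limma unadjusted p = 0.0836, adjusted p = 1). With that of brush border genes instead the median was -0.020, with 22 of 38 lower, and Postn was at -0.41 ± 0.12 (unadjusted p = 0.0118, adjusted p = 1). Timp3 was at -0.35 over all arrays and changed sign with the muscle covariate, to 0.13 ± 0.24 (SE). With the brush border covariate Timp3 was at -0.099 ± 0.20. Of all tested genes 49.2% were lower with the muscle covariate and 45.9% with the brush border covariate. The brush border mean was itself extreme on both replicate 1 arrays (-1.17 and 0.83), so that covariate partly stands for these 2 arrays. The smooth muscle mean was nearly level on the VDR-null arrays and lower there than on any wild-type array. Its slope therefore came almost wholly from the wild-type arrays, and it partly stands for genotype. The SE of Postn rose from 0.11 over all arrays to 0.16 with it. Whether the shift holds apart from muscle content cannot be told from that fit. Why the 2 fits differ was not tested.

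**Figure D5:**
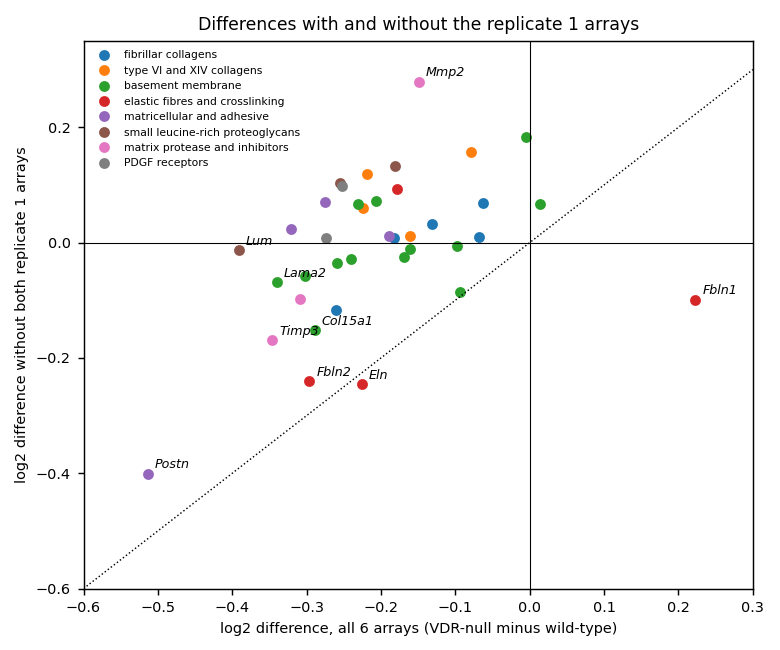
Log2 difference of each tested matrix gene over all 6 arrays (horizontal) against that without both replicate 1 arrays (vertical), coloured by role, with the line of equal values dotted. Most genes lie near 0 on the vertical axis, while Postn (-0.51 and -0.40), Fbln2 (-0.30 and -0.24) and Eln (-0.23 and -0.25) lie close to the dotted line.

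The targeted gene gave no check of the genotypes. Vdr differed by -0.025 ± 0.12 (SE; limma adjusted p = 0.944). Neither the missing part of it nor the place of its probes is known here, so this value does not check the labels.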

How the data were processed

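The authors deposited a log2 signal for each probe set and array. Per the submitters' processing notes it was made with RMA in Affymetrix Expression Console. RMA corrects background, equalises the distributions of the arrays and summarises probes, so a shift shared by most genes cannot be seen. Groups and replicate numbers came from the sample titles. The genotypes, 3 arrays each, were contrasted by limma's moderated two-sided test (limma 3.58.1, R 4.3.3) over 13174 genes with at least 3 arrays above the median of all values, with Benjamini-Hochberg adjustment and a threshold of 0.05. The number of arrays limits the precision. Members, role groups and further lists were chosen with earlier results of these data known. Values on every array are given for matrix genes with an unadjusted p under 0.05, for the smallest p of each role group and for genes beside which a result turns (chosen after their values were seen); of other lists, up to 2 genes with the smallest p are named. Alternatives covered the filter, normalization, spread, array weights, pairing, left-out arrays, probe sets and 2 covariates. The further lists without both replicate 1 arrays were added after the data were seen. Names and promoter sequences are from the platform annotation and RefSeq (GRCm38.p6). No source used here names the build behind the arrays.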

Additional observations from a re-analysis of the deposited data

How the results depend on the processing

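No matrix gene passed an adjusted p of 0.05 in limma in any of the 20 alternatives, while 13 of the 38 tested kept a lower sign in all of them. The count with an unadjusted p under 0.05, 2 over all arrays, was 4 after a second quantile normalization or cyclic loess and 5 with array weights. It was 1 without both replicate 1 arrays or with the brush border covariate, and 0 with the smooth muscle covariate. It was between 1 and 5 when single arrays were left out. All genes counted were lower. The share of all tested genes lower at that p moved too, from 3.03% over all arrays. It was 3.08% and 2.26% with the 2 normalizations and 10.9% with array weights. It was 1.57% without both replicate 1 arrays, 1.78% and 0.562% with the 2 covariates, and 1.24% to 5.15% without single arrays. The samples share only a number: deviations of same-numbered arrays correlated at -0.62, 0.19 and -0.26. With the replicate block the count was 1, where 1.47% of all tested genes were lower at that p. The count with a lower sign was 17 without both replicate 1 arrays, 21 with array weights and 22 with the brush border covariate. Of all tested genes 45.6%, 51.6% and 45.9% were lower in these fits. The median over all matrix genes was 0.0092, -0.025 and -0.020 in these 3 fits. Without both replicate 1 arrays the medians were 0.010 for fibrillar, -0.025 for basement membrane and 0.018 for matricellular genes. With the brush border covariate they were -0.040 for basement membrane and -0.0088 for matricellular genes, and with array weights -0.077 for matricellular genes. Col6a2 changed sign with the brush border covariate (0.025), with array weights (0.0066) and without both replicate 1 arrays (0.059), and Pdgfra with array weights (0.033) and without both arrays (0.0075). The cause was not tested. Signal over background limits Lox, Col4a5 and Col4a6, and in the further lists Emilin2, Col17a1 and Adamts5.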
